A study of Mus musculus with 6 samples.

Results

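Endothelial cells of the mouse kidney were compared between day 10 and day 2 of unilateral ureteric obstruction (UUO), the blockage of 1 ureter, after which the kidney above it dilates, loses tubules and scars. The cells were those in wells that the deposited plate layouts label as endothelia gate at either time, a gate being the window of a cell sorter through which a cell is taken. Of 768 such wells, 749 held at least 1000 detected genes and 20000 reads on genes and were kept, out of 2235 kept wells in the series. Day 10 had 381 wells (127, 64, 64 and 126 under the layout numbers 1, 2, 3 and 4) and day 2 had 368 (114, 63, 64 and 127), and 380 wells of healthy mice from the same gate gave the level without obstruction.

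Kidneys were digested with enzymes, and single cells were sorted into 6 plates and read with Smart-seq2, which covers whole transcripts and carries no molecular identifiers. Each plate mixed a healthy mouse, a mouse at day 2 and a mouse at day 10. Number 1 stood on plates 1 and 2, number 2 on plate 3, number 3 on plate 4 and number 4 on plates 5 and 6. The number was read as the mouse of each condition, so that these 4 numbers are the replicates. In gene tests with number as a block, p-values measure the spread left after the level shared by a number is removed, healthy mice included. Strain, genotype, sex, age and any sham operation of the healthy mice are not given in the sources used here. The count tables hold an entry for eGFP, a reporter the labels do not describe, at 1.96 to 29.8 CPM (counts scaled to a fixed total of reads) in the endothelia gate against 283 to 760 CPM in the mesenchyme gate at the same times.

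Endothelium lines every vessel of the kidney, and its beds differ. Glomerular capillaries, marked by Ehd3, filter the blood through pores, while peritubular capillaries, marked by Plvap, wrap the tubules and take back fluid. Capillary endothelium also takes up fatty acids from lipoproteins, presents peptides on MHC class I, answers interferon with antiviral genes, and forms sprouts whose leading tip cells express Dll4, Apln, Esm1 and Angpt2.

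Reads of all wells of a number and condition were summed, which gave 4 sums at each time, of 27396787 to 56326210 reads at day 10 and 23689846 to 44402782 at day 2. Levels are CPM with TMM scaling, and a change is the log2 of day 10 over day 2 with its SE. Transcripts of endothelial markers were present in all 8 sums. Pecam1, an adhesion molecule of endothelial junctions, stood at 2342 to 2932 CPM at day 10 and 1805 to 2769.9 CPM at day 2, and the VEGF receptor Kdr at 1123 to 1803 and 1067 to 2651 CPM. The leukocyte antigen Ptprc did not exceed 3.30 CPM. The summed level of 13 leukocyte markers was 43.0, 36.8, 204 and 69.5 CPM at day 10 and 51.8, 6.65, 50.2 and 20.4 CPM at day 2, higher at day 10 in 3 of 4 numbers. That of 14 mural and fibroblast markers was 61.3 to 280.2 and 39.2 to 439.9 CPM. That of 8 podocyte markers was 1497 to 4232 CPM at day 10 and 2087 to 3778 CPM at day 2.

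The share of glomerular cells in the gate varied widely between mice. Ehd3 reached 50 CPM in 80.3, 79.7, 59.4 and 65.9% of wells at day 10 and in 71.1, 90.5, 50 and 52.0% at day 2, a mean difference of 5.44 percentage points (exact permutation test, two-sided, n = 4 against 4, p = 0.657, smallest possible p 0.0286). Number 2 stood apart at day 2, with the most Ehd3 wells and with Plvap at 103 CPM against 1065 to 2811 CPM in the other day 2 sums. The median well held 430855.5 to 457819 reads at day 10 and 376077 to 422504 at day 2, without overlap. It held 3063 to 3459 genes at day 10 and 2906.5 to 3167 at day 2 (exact permutation p = 0.114). As a mean over wells, genes were 3381 ± 222 at day 10 and 3054 ± 120 at day 2 (SD, exact permutation p = 0.0571). Gene reads per spike-in read, a measure of RNA per well, were 283 ± 16.7 at day 10 and 303 ± 52.9 at day 2 (SD, n = 4 each, exact permutation p = 0.714).

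Lpl, which encodes lipoprotein lipase, the enzyme that frees fatty acids from circulating triglycerides, fell between day 2 and day 10. Its 4 day 2 sums held 1305, 2117, 809 and 1032 CPM, and its day 10 sums 395, 491, 209 and 188 CPM. Every day 10 value lay below every day 2 value, and each number moved the same way. The log2 change was -2.06 ± 0.20 (SE), with an adjusted p of 0.00725 in edgeR's quasi-likelihood test with number as a block. Healthy sums held 837, 650.1, 444 and 545 CPM, of which the first lay inside the day 2 range, the third inside the day 10 range and the others between. The gene lies on chr8:68880491-68907448 of GRCm38, plus strand. Against healthy mice the change was 1.02 at day 2 (adjusted p = 0.0823) and -1.04 at day 10 (adjusted p = 0.0395). Both come from 1 fit with the same healthy sums, in which 21 genes (0.15%) passed at day 2 and 91 (0.649%) at day 10.

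Lpl was 1 of 2 genes called among 14026 tested (0.0143%), both lower at day 10, while 882 genes (6.29%) had an unadjusted p under 0.05. The other was Tmem27, a membrane protein of the proximal tubule, which was named after its values were seen. It is taken up below with the tubule transcripts. Without the block edgeR called 0 genes (764 at an unadjusted p under 0.05), where the adjusted p of Lpl was 0.118. DESeq2 called 1070 genes, 503 higher and 567 lower, with both genes among them. Leaving out number 1, 3 or 4 left 0 calls (736, 775 and 687 at an unadjusted p under 0.05) and leaving out number 2 gave 6. The log2 change of Lpl stayed between -2.15 and -1.94, with adjusted p-values of 0.103, 0.00479, 0.197 and 0.10 without numbers 1 to 4. Because few genes passed, genes that did not pass are given below by their values. The 4 day 10 values lay above all 4 day 2 values for 244 genes (1.74%) and below them for 303 genes (2.16%), which is the background for each count of non-overlapping members.

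In sums over wells, fewer cells with a transcript cannot be told apart from less RNA per cell, so Lpl was also read well by well. After thinning each well to 100000 reads, Lpl reached 10 reads in 57.4, 79.4, 35.9 and 39.3% of day 2 wells and in 37.6, 50.8, 19.4 and 23.2% of day 10 wells. Before thinning the shares were 35.9 to 82.5% and 20.3 to 50%. The share was lower at day 10 in each of the 4 numbers, although the ranges of both times overlapped. No single well gave more than 20.9% of the Lpl reads of a sum.

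**Figure D1:**
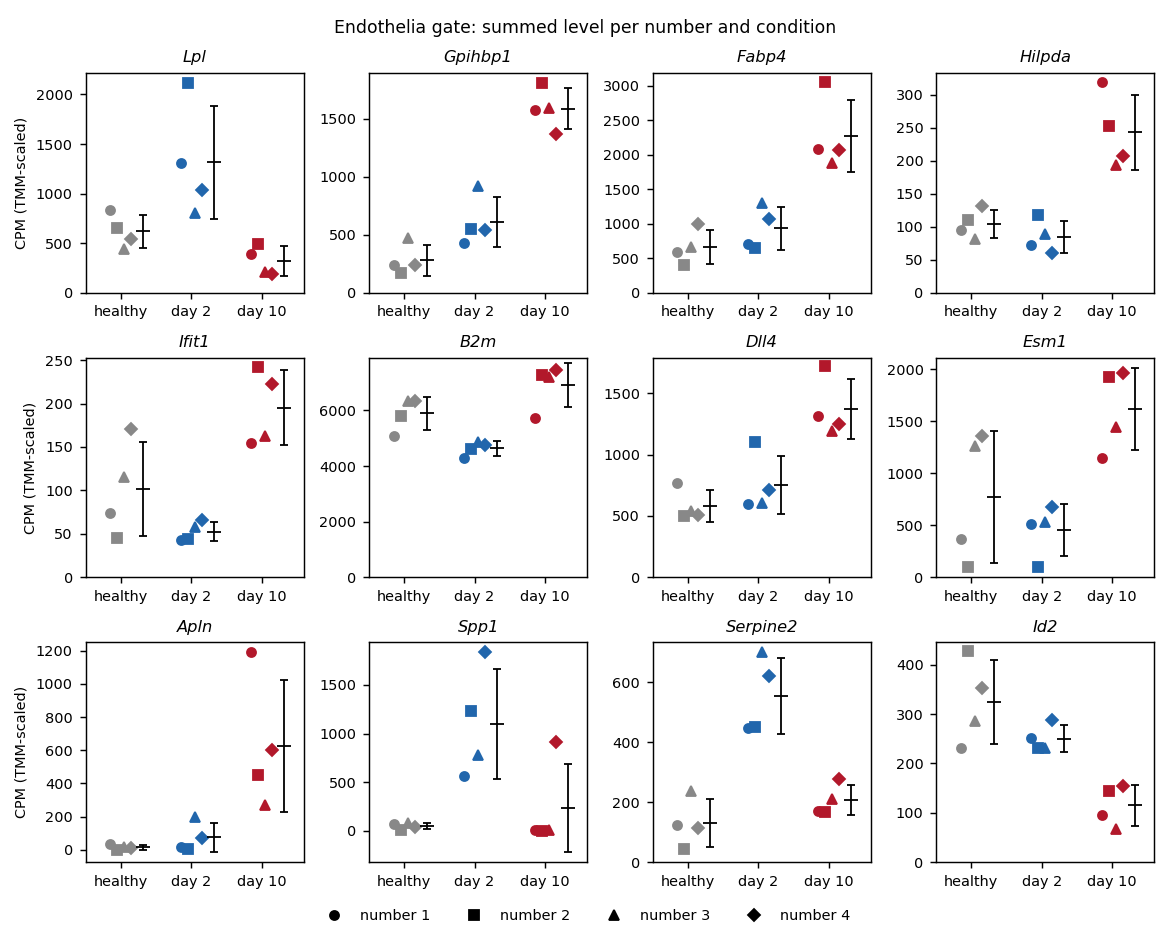
Level of 12 genes in the endothelia gate in CPM with TMM scaling, for healthy mice, day 2 and day 10 of UUO; each symbol is the sum of 1 number, and the bar beside it is the mean with its SD (n = 4). Lpl lies at 188 to 491 CPM at day 10 and 809 to 2117 CPM at day 2, and Gpihbp1 at 1369 to 1809 against 428 to 917 CPM.

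Among genes of fatty acid uptake, Gpihbp1 and Fabp4 had the opposite pattern to Lpl. Gpihbp1, which carries lipoprotein lipase across the capillary wall and holds it on the luminal side, stood at 428, 546, 917 and 544 CPM at day 2 and 1575, 1809, 1595 and 1369 CPM at day 10 (change 1.46 ± 0.22, edgeR adjusted p = 0.103). Fabp4, a fatty acid carrier of the cytosol, stood at 714, 650.4, 1305 and 1075 CPM and then 2088, 3051, 1885 and 2071 CPM (change 1.35 ± 0.28, adjusted p = 0.233). For both genes all day 10 values lay above all day 2 values, and neither passed the threshold in the gate as a whole. Hilpda, a lipid droplet protein that slows fat breakdown, was at 72.8, 117, 88.7 and 60.5 CPM at day 2 and 319, 253, 193 and 207 CPM at day 10 (change 1.52 ± 0.24, adjusted p = 0.103).

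Healthy levels of Gpihbp1 were lower still, at 173 to 475 CPM, and the day 10 change against them was 2.6 (adjusted p = 0.00139). The fatty acid transporter Cd36 differed by less than its SE, at 165 to 354 CPM at day 10 and 171 to 511 CPM at day 2. Abca1, which exports cholesterol, stood at 148, 81.5, 230.1 and 266 CPM at day 2 and 52.7, 41.4, 119 and 196 CPM at day 10 (change -0.95 ± 0.28, adjusted p = 0.484). Of 21 tested genes of capillary lipid uptake and transport, 1 passed (Lpl), 3 lay wholly above at day 10 and 1 wholly below. Hilpda is not among the 21. Their changes were positive in 12 and negative in 9, with a median of 0.14, beside 0.00 (0.000185) over all genes tested.

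More genes passed when only wells with Ehd3, the glomerular share of the gate, were summed. Among wells with at least 50 CPM of Ehd3 (38 to 102 wells a sum at day 10, 32 to 81 at day 2), edgeR called 19 of 12929 genes (0.147%), 9 higher and 10 lower. From 0 to 6 wells a sum lay near the limit, between 25 and 100 CPM. Limits of 20 and 100 CPM gave 18 and 16 calls, the test without the block 12, and leaving out a number 0 to 10 (1 without number 1, 10 without number 2, 0 without number 3 and 1 without number 4). In wells under 50 CPM, which numbered 13 to 43 a sum at day 10 and 6 to 61 at day 2, edgeR called 0 of 11949 (0%), with 318 at an unadjusted p under 0.05. A test of the difference between both ranges of wells called 0 of 14029 genes (0%), with 327 at an unadjusted p under 0.05, so no change is shown to belong to the Ehd3 wells alone.

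In the Ehd3 wells Lpl fell from 1685, 2283, 1617 and 1829 CPM to 455, 560.5, 331 and 255 CPM (change -2.25 ± 0.18, edgeR adjusted p = 0.00167). Gpihbp1 rose from 409, 588, 953 and 694 CPM to 1681, 1956, 2119 and 1707 CPM (1.57 ± 0.19, adjusted p = 0.0217), Fabp4 rose by 1.69 ± 0.27 (adjusted p = 0.0455) and Hilpda by 1.52 ± 0.23 (adjusted p = 0.0377). The lipase and its anchor thus moved in opposite directions in sums over the same range of wells. Their levels within single wells were not compared. In the other wells the changes were -0.83 ± 1.32 for Lpl, 1.51 ± 0.62 for Gpihbp1 and 0.01 ± 0.32 for Fabp4. The difference between ranges for Fabp4 was 1.66 ± 0.43, with an unadjusted p of 0.00160 and an adjusted p of 1.00.

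Other genes that rose in the Ehd3 wells have varied roles. Uchl1, a ubiquitin hydrolase, rose from 64.2, 98.6, 92.8 and 92.3 CPM to 206, 509, 373 and 385 CPM (2.05 ± 0.24, adjusted p = 0.0217). Hapln1, a link protein that binds hyaluronan in the matrix, rose from 3.98 to 14.2 CPM across sums to 53.8 to 128 CPM (3.71 ± 0.56, adjusted p = 0.0377). It came from few cells: in the whole gate, before thinning, 9.38 to 15.6% of day 10 wells had 10 reads of it, and at day 2 only 1, 2, 1 and 1 wells did. Cldn5, a tight junction protein, rose from 133 to 159 CPM to 327 to 364 CPM (1.27 ± 0.17, adjusted p = 0.0258), while the change in the other wells was -0.28 ± 0.45. B2m, Ifit1 and Ifitm3 complete the 9 and are described with the interferon genes.

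Genes that fell in the Ehd3 wells included regulators of clotting, prostaglandin and nucleotide signals. Serpine2, an inhibitor of thrombin and plasminogen activators, fell from 439.6, 408, 749.5 and 676 CPM to 162, 121, 108 and 197 CPM (-1.91 ± 0.26, adjusted p = 0.0258). Slco2a1, a prostaglandin transporter, fell from 1160.4 to 1517 CPM to 311 to 589 CPM (-1.54 ± 0.21, adjusted p = 0.0258). Entpd1, the ectoenzyme CD39 that breaks down extracellular ATP and ADP, fell by 1.15 ± 0.18 (adjusted p = 0.0377). Emilin1, an elastic fibre glycoprotein, fell by 1.31 ± 0.20 and Col18a1, the basement membrane collagen that gives endostatin, by 1.21 ± 0.19, each with an adjusted p of 0.0377. Clec14a, a lectin of endothelium, fell by 1.24 ± 0.17 (adjusted p = 0.0279) and Pi16 by 1.03 ± 0.14 (adjusted p = 0.0258). Dnajb4, a chaperone, and Spp1, described below, made up the 10.

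**Figure D2:**
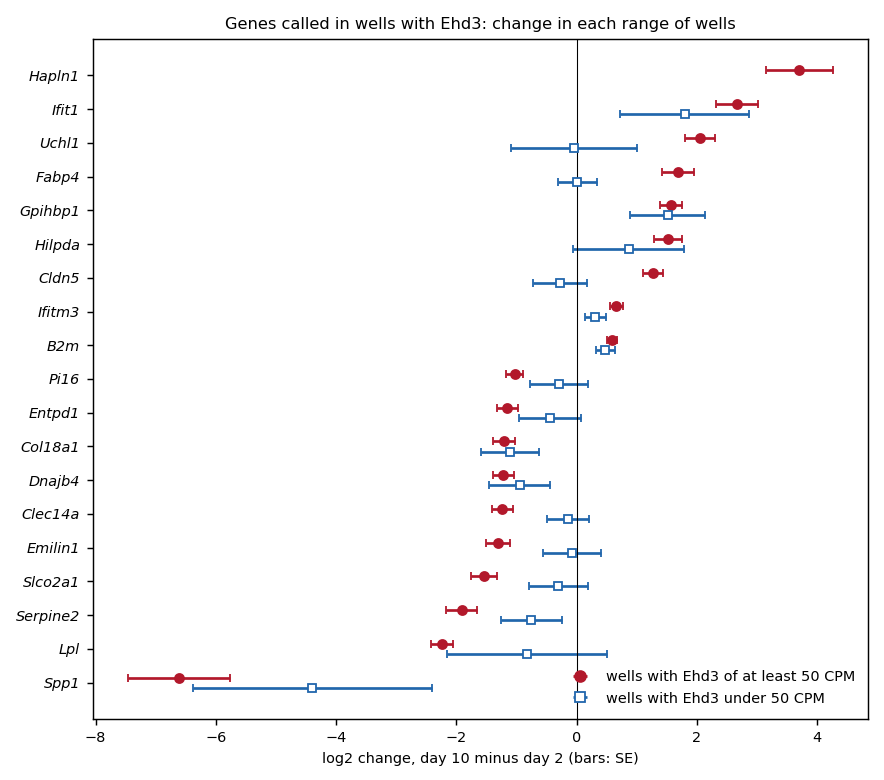
Log2 change from day 2 to day 10 with its SE for the 19 genes called in wells with at least 50 CPM of Ehd3 (filled circles), beside the same genes in wells under 50 CPM (open squares; Hapln1 was not tested there). Lpl lies at -2.25 and -0.83 and Gpihbp1 at 1.57 and 1.51; no difference between the ranges passed the test.

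Interferon-stimulated genes stood higher at day 10 than at day 2 in most members. Promoters of 3 of them are shown because the letters that the interferon-activated factor ISGF3 and IRF proteins read can be seen in them. The 120 bases of each lie within 250 bases before the RefSeq start on GRCm38.p6, are written 5′ to 3′ on the gene's strand, and have in capitals each match of the motif GAAA, any 2 bases, GAAA on either strand (TTTC, any 2 bases, TTTC when read on the other). Ifit1, an antiviral protein that binds foreign RNA, is from chr19:34640765-34640884 (plus strand) and has 2 matches. Bst2 (tetherin), which holds budding virus on the cell, is from chr8:71537503-71537622 (minus strand) and has 2 that overlap. B2m, the light chain of MHC class I, is from chr2:122147528-122147647 (plus strand) and has 1.
Ifit1: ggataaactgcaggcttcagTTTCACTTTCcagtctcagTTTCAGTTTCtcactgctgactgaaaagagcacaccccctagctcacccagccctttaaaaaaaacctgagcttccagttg
Bst2: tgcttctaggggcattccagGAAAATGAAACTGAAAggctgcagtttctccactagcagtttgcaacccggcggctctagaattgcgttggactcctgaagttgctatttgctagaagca
B2m: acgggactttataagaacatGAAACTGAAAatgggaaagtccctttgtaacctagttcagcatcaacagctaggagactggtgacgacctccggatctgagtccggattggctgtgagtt

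The motif stood in the 250 bases before the start in 13 of the 27 listed interferon genes with a RefSeq entry (48.1%), in 3 of 15 MHC class I genes (20%) and in 936 of all 27025 genes with an entry (3.46%). Counted by promoter, it stood in 978 of 32851 (2.98%). A match is a description of the letters and was not measured as a bound site.

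Ifit1, with both matches near its start, stood at 42.7, 43.9, 57.5 and 65.5 CPM at day 2 and 154, 243, 162 and 222 CPM at day 10 (change 1.94 ± 0.30, edgeR adjusted p = 0.103). The day 10 values lay wholly above, and healthy sums overlapped both times at 45.9 to 171 CPM. In the Ehd3 wells Ifit1 rose from 20.1 to 48.3 CPM to 146 to 259 CPM (2.67 ± 0.35, adjusted p = 0.0258). At 100000 reads a well, 6.35 to 15.6% of day 2 wells and 21.0 to 28.8% of day 10 wells had 10 reads of it.

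Rtp4, an interferon-induced chaperone of receptors, was at 96.9 to 133 CPM at day 2 and 181 to 315 CPM at day 10 (1.13 ± 0.18, adjusted p = 0.103). Bst2 stood at 204, 147, 269 and 275 CPM and then 302, 351, 519 and 438 CPM (0.85 ± 0.16, adjusted p = 0.169). Healthy sums of Bst2 were at 261 to 557 CPM, and its change against them did not pass at day 2 (-0.75, adjusted p = 0.136) or day 10 (0.10, adjusted p = 0.895). Ifitm3, which blocks entry of virus at the membrane, rose in the Ehd3 wells by 0.66 ± 0.11 (adjusted p = 0.0472) and differed by 0.52 ± 0.11 in the whole gate (adjusted p = 0.253). Isg15, a ubiquitin-like modifier, was at 24.4 to 46.3 CPM at day 2 and 65.8 to 127 CPM at day 10 (adjusted p = 0.537). Irf7, which amplifies the response, stood higher at day 10 in each number, with overlapping ranges of 94.6 to 206 CPM and 165 to 358 CPM.

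All 40 interferon genes were tested. None passed the threshold, 17 had an unadjusted p under 0.05 and a positive change (background 2.81%), and 7 lay wholly above at day 10, among them Usp18 and Oasl2. One, Tmem173 (the sensor adaptor STING), lay wholly below. The median change was 0.61, with 35 of 40 positive, beside 0.00 (0.000185) and 7014 of 14026 over all genes. In 15 tested MHC class I genes the median was 0.29 and 13 were positive. B2m stood at 4283, 4632, 4878 and 4751 CPM at day 2 and 5725, 7281, 7198 and 7467 CPM at day 10, wholly above (0.57 ± 0.10, adjusted p = 0.121), and rose by 0.59 ± 0.09 in the Ehd3 wells (adjusted p = 0.0377). The heavy chain H2-K1 was at 1256 to 2128 CPM and 1896 to 2939.7 CPM. The summed leukocyte markers stood higher at day 10 in 3 of 4 numbers, and their part in these values was not tested.

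**Figure D3:**
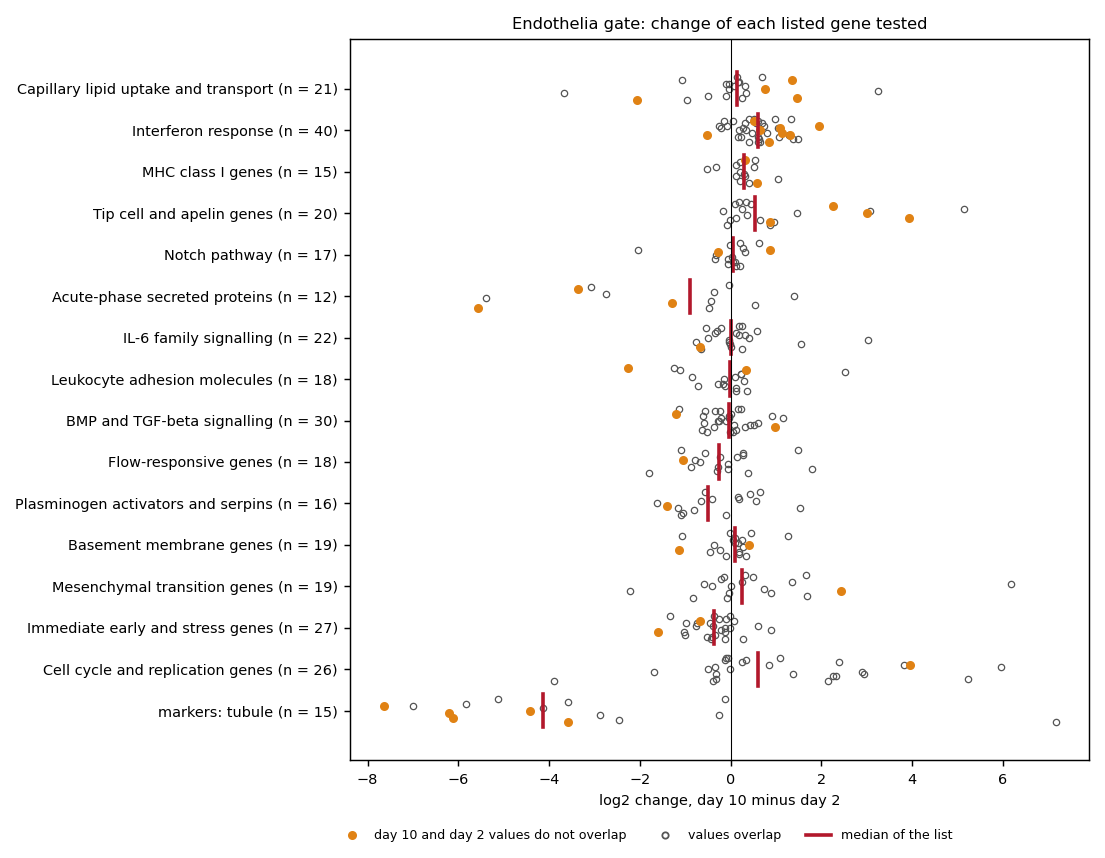
Log2 change from day 2 to day 10 of each tested gene of 16 lists in the endothelia gate; filled points are genes whose 4 values at one time lie wholly above or below those at the other, and the thick line is the list's median. The interferon list has a median of 0.61, the tip cell list 0.54 and the tubule markers -4.13, beside a median near 0 over all genes.

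Most listed genes of sprouting tip cells stood higher at day 10, with wide spread between mice. Apln, the ligand of the apelin receptor and a tip cell product, was at 19.3, 7.13, 199 and 72.8 CPM at day 2 and 1189, 450.1, 269 and 602 CPM at day 10 (change 3.92 ± 1.19, edgeR adjusted p = 0.519). The 4 day 10 values lay above the day 2 values, and healthy sums held at most 35.4 CPM. At 100000 reads a well, 22.4 to 31.7% of day 10 wells and 1.59 to 10.9% of day 2 wells had 10 reads of Apln (21.9 to 35.4% and 1.59 to 12.5% before thinning). In the day 2 sum of number 2, 98.8% of its reads were from 1 well.

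Esm1 (endocan), a secreted proteoglycan of tip cells, was at 513, 99.0, 528 and 673 CPM at day 2 and 1148, 1924, 1444 and 1961 CPM at day 10 (2.25 ± 0.62, adjusted p = 0.428). Its day 10 values lay wholly above, while healthy sums of 102 to 1359 CPM overlapped both times. Angpt2, which opposes Tie2 signalling and loosens vessels, was at 10.8, 0.396, 60.5 and 8.99 CPM at day 2 and 351, 166, 54.6 and 302 CPM at day 10, and number 3 did not share the direction of the others. Dll4, the Notch ligand that restrains neighbouring sprouts, was at 596, 1101, 609 and 710.5 CPM and then 1314, 1724, 1189.8 and 1252 CPM, wholly above (0.87 ± 0.20, adjusted p = 0.288). Cxcr4, a chemokine receptor of tip cells, was at 0.617 to 5.78 CPM and then 8.29 to 14.3 CPM. With wells thinned as for Apln, Dll4 had 10 reads in 49.2 to 55.3% of healthy wells across sums. At day 2 the Dll4 share was 60.2 to 82.5% and at day 10 76 to 100%, so Dll4 was not limited to rare wells. Esm1 shares were 8.06 to 32.8, 7.94 to 35.9 and 29.0 to 50.8%. Those of Angpt2 were at most 6.78, at most 6.25 and 8.06 to 21.6%. Whether wells with these transcripts held tip cells was not tested.

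Of 20 tip cell genes, none passed, 4 lay wholly above at day 10 (background 1.74%), none wholly below, and 17 were positive, with a median of 0.54. The Tie receptors had the other sign. Tek (Tie2), the receptor of angiopoietins, stood at 1285, 1517, 955 and 1189.9 CPM at day 2 and 761, 719, 596 and 955 CPM at day 10 (-0.72 ± 0.15, adjusted p = 0.236). Tie1 was wholly below at day 10 (591 to 752 against 834 to 1180.3 CPM). Among 16 tested VEGF and angiopoietin ligands and receptors the median was -0.03, and Flt1 was the other member wholly below. Among 17 Notch genes the median was 0.05, and the target Hes1 was at 213 to 300.3 CPM at day 10 and 281 to 342 CPM at day 2.

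**Figure D4:**
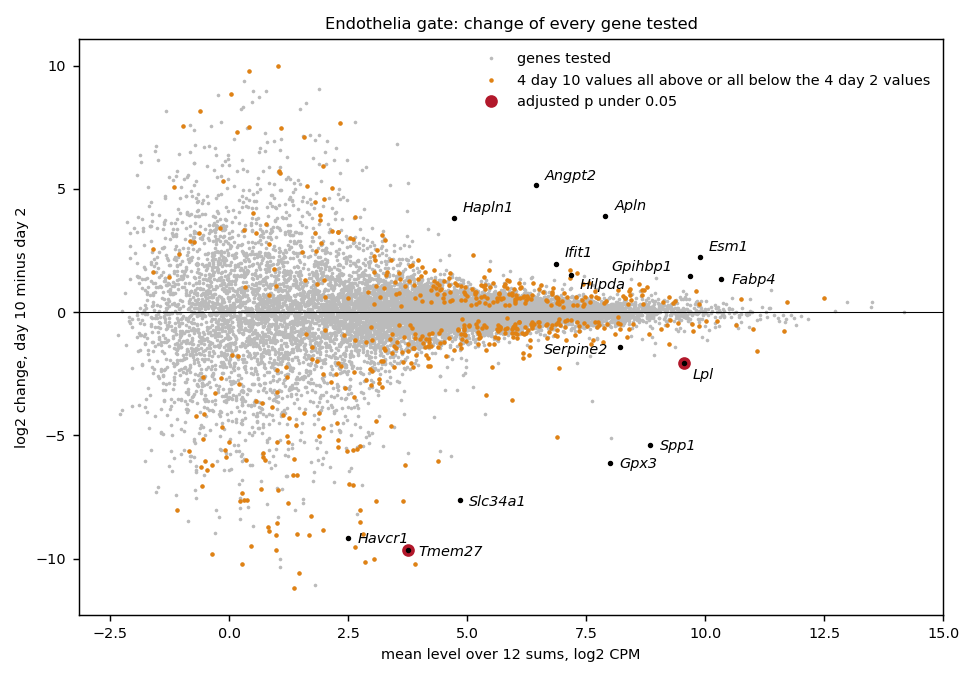
Log2 change from day 2 to day 10 against the mean level over 12 sums for 14026 genes of the endothelia gate; orange points are the 547 genes (3.9%) whose values at both times do not overlap, red circles the 2 genes with an adjusted p under 0.05, and black points the genes labelled by name. Lpl and Tmem27 lie below 0, and the spread of changes widens at low levels.

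Most listed secreted proteins of the acute phase, which endothelium can make under IL-6 family cytokines, stood lower at day 10 than at day 2. Lrg1, a glycoprotein that modifies TGF-beta signals in vessels, was at 324, 386, 459 and 382 CPM at day 2 and 87.5, 127, 239.9 and 193 CPM at day 10 (-1.29 ± 0.44, edgeR adjusted p = 0.575), wholly below. Healthy sums held 9.69 to 45.5 CPM, and the day 2 change against them passed (3.62, adjusted p = 0.0174) while the day 10 change did not (2.33, adjusted p = 0.0585). Serpina3n, a protease inhibitor, was at 26.7, 92.9, 106 and 226 CPM and then 15.7, 16.9, 0.109 and 17.8 CPM. Of 12 tested genes 10 were negative, 3 lay wholly below (background 2.16%; C3 was the third), and the median was -0.89. Spp1, which injured tubules make too, is on this list. Which cells the reads of the listed genes came from was not tested.

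The signalling genes upstream moved less. Stat3, the transcription factor that IL-6 family receptors activate, stood at 469.7, 572, 465 and 462 CPM at day 2 and 313, 337, 274 and 305 CPM at day 10, wholly below (-0.68 ± 0.13, adjusted p = 0.190). Healthy sums held 167 to 259 CPM. The feedback inhibitor Socs3 overlapped, at 1261 to 3186 CPM and 1303 to 1659 CPM, beside 233 to 882 CPM in healthy sums. The median over 22 IL-6 family genes was -0.00 (-0.00258). Sele, E-selectin, on which leukocytes roll, was at 251, 464, 107 and 316 CPM at day 2 and 93.7, 17.1, 28.9 and 86.0 CPM at day 10 (-2.26 ± 0.82, adjusted p = 0.623). Icam1 overlapped (494 ± 88.4 against 540.1 ± 136 CPM, SD, n = 4 each), as did Vcam1. The chemokine Cx3cl1 had the other sign, at 489 to 1059.6 CPM at day 2 and 916 to 1386 CPM at day 10 (0.73 ± 0.21, adjusted p = 0.455).

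Spp1, osteopontin, a secreted matrix protein that injured tubules make in quantity, was the most uneven of these genes. Its sums were 559, 1230.0, 777 and 1834 CPM at day 2, 12.2, 1.78, 10.4 and 913 CPM at day 10 and 5.80 to 84.4 CPM in healthy mice (adjusted p = 0.554 for day 10 against day 2). Number 4 stood apart at day 10, where 1 well held 70.3% of the Spp1 reads, and the unscaled level without that well was 278 CPM. In the Ehd3 wells, where number 4 held 8.03 CPM at day 10, Spp1 fell from 433 to 1349 CPM to 1.96 to 15.6 CPM (-6.61 ± 0.85, adjusted p = 0.0258). The 1349 CPM was that of number 2. There 1 well held 92.9% of the day 2 Spp1 reads of the whole gate, whose unscaled level without it was 80.0 CPM.

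At day 2 Spp1 was spread over many wells in 3 of the 4 numbers. At 100000 reads a well, 69.4, 14.3, 79.7 and 59.8% of day 2 wells had 10 reads of it (79.8, 17.5, 87.5 and 79.5% before thinning), against at most 4.80% in any day 10 sum (7.94% before thinning). In number 2 a single well gave 92.9% of the day 2 reads. The tubule transcript Gpx3, which is secreted by proximal tubule cells, had the same order over these sums, with 57.4, 19.0, 73.4 and 56.6% of day 2 wells and at most 5.60% of day 10 wells. Its part in the Spp1 result was not tested. In healthy sums Gpx3 reached 39.8, 55.7 and 51.7% of wells in numbers 1, 3 and 4 while Spp1 stayed at 3.28 to 5.93%.

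**Figure D5:**
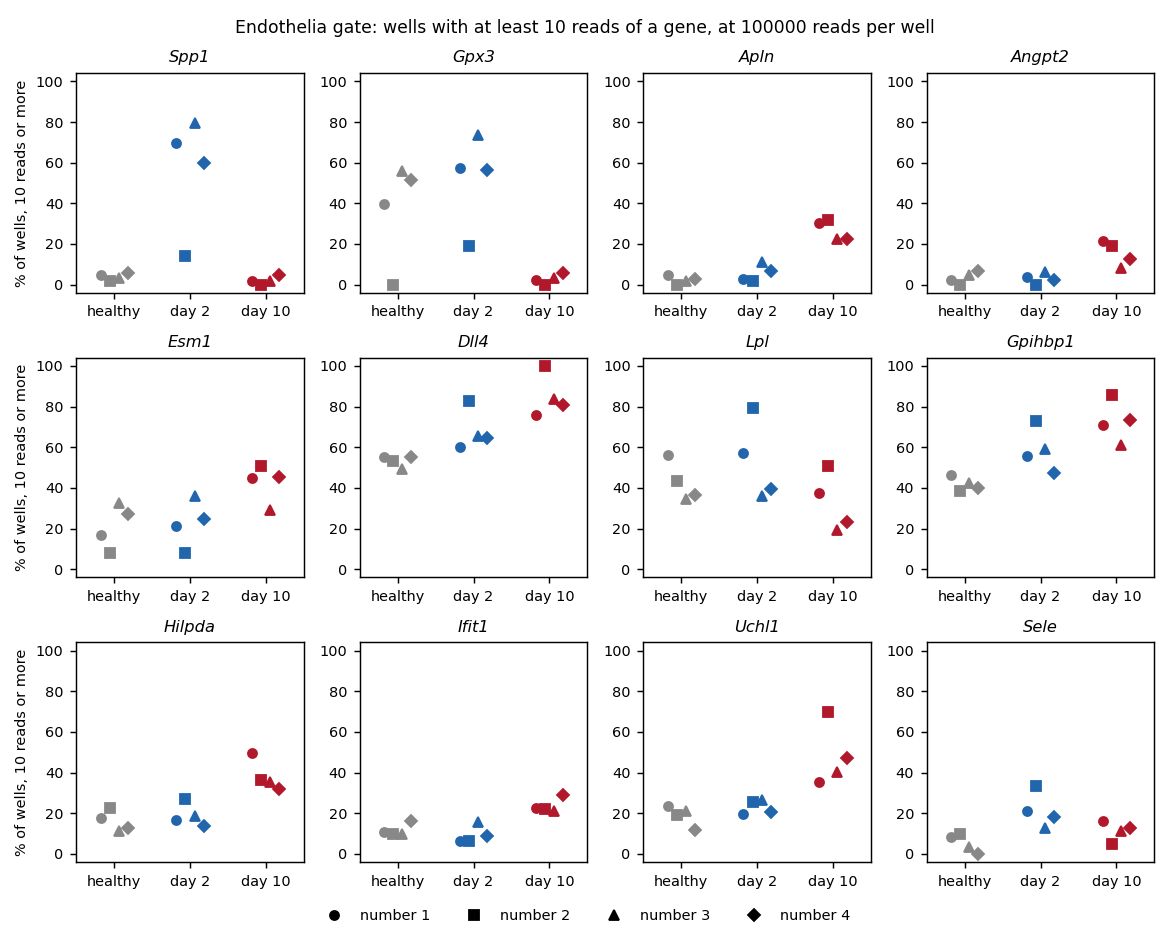
Share of endothelia gate wells with at least 10 reads of a gene after thinning each well to 100000 reads, in percent, for healthy mice, day 2 and day 10; each symbol is 1 number. Spp1 reaches 59.8 to 79.7% of day 2 wells in numbers 1, 3 and 4 and 14.3% in number 2, and Apln 22.4 to 31.7% of day 10 wells against 1.59 to 10.9% at day 2.

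Several tubule transcripts stood near 0 in the gate at day 10. Tmem27 stood at 11.7, 14.9, 13.9 and 27.0 CPM at day 2 and at 0, 0, 0 and 0.115 CPM at day 10 (edgeR adjusted p = 0.0360), so no fold is given. Its adjusted p was 0.0583 without the block and 0.385, 0.197 and 0.480 without numbers 1, 3 and 4. Before thinning, no day 10 well had 10 reads of it, which allows at most 2.36 to 4.69% of wells in a sum by counting error alone, while 3.17 to 8.77% of day 2 wells did. A single well gave 26.6, 66.4, 77.9 and 28.2% of the Tmem27 reads of the day 2 sums. Without that well the unscaled day 2 levels were 8.76, 4.59, 3.19 and 20.4 CPM. Slc34a1, the phosphate transporter of the proximal tubule, was at 19.1, 2.29, 29.6 and 8.66 CPM and then at most 0.291 CPM (adjusted p = 0.110). Gpx3 was at 359.5, 364, 521 and 435 CPM and then 9.88, 0.530, 18.9 and 21.5 CPM (adjusted p = 0.214). In the day 2 sum of number 2, 78.7% of the Gpx3 reads were from 1 well, and the unscaled level without it was 70.7 CPM. The largest such share in the other day 2 sums was 22.96%, in number 4. The injury marker Havcr1 (KIM-1) was at 13.0 to 23.4 CPM at day 2, at 0 in 3 day 10 sums and 0.611 CPM in the fourth, and at 0 in all healthy sums. Most of its day 2 reads came from 1 well in each sum (78.06 to 99.03%). Without that well the unscaled day 2 levels were 1.34, 0.121, 2.98 and 5.38 CPM.

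Of 15 tubule markers, 14 had a negative change and 5 lay wholly below at day 10 (background 2.16%), with a median of -4.13. The exception was Slc12a3, the thiazide-sensitive transporter of the distal tubule. The summed level of all 15 markers fell far less than this median, with ranges that overlapped. It was 3350, 4319, 2727 and 2404 CPM at day 2 and 2433, 2651, 2008 and 2165 CPM at day 10. Of these day 10 sums Gpx3 gave at most 21.5 CPM and Slc34a1 at most 0.291 CPM. The rest came from other listed markers, and whether those reads were of tubule origin was not tested. Healthy sums held proximal tubule transcripts too, with Kap, an androgen-driven gene, at 126, 1.66, 918 and 1084 CPM and Gpx3 at 239, 1.28, 491 and 626 CPM. Number 2 was the lowest in both. How these reads came into endothelial wells was not tested. Podocyte markers had 7 of 8 changes negative with none wholly below.

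Id2, Id1 and Klf2, targets of BMP and flow signals, stood lower at day 10 in each number, and none passed between day 10 and day 2. Id2, an inhibitor of differentiation factors that BMP receptors induce, was at 251, 230.5, 231 and 289 CPM at day 2 and 94.9, 144, 66.2 and 155 CPM at day 10, wholly below (-1.19 ± 0.21, edgeR adjusted p = 0.121). Against healthy sums (232 to 427 CPM) its day 10 change was -1.53 (adjusted p = 0.0164). Id1 was at 328 to 596 CPM at day 2 and 172 to 392 CPM at day 10, below in each number (-0.64 ± 0.17, adjusted p = 0.391), and passed against healthy sums at day 10 (-1.34, adjusted p = 0.0124). Id3 was at 1185, 741.3, 1583 and 1347 CPM at day 2 and 591, 789, 1018 and 836 CPM at day 10 (-0.58 ± 0.19, adjusted p = 0.554), with number 2 in the other direction. The mediator Smad1 had the other sign, at 40.1 to 62.0 CPM and then 82.6 to 136 CPM (0.97 ± 0.23, adjusted p = 0.30). Over 30 genes of BMP and TGF-beta signalling the median was -0.03, with 1 wholly above and 1 wholly below.

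Klf2, the transcription factor that laminar flow induces, was at 621, 591, 813 and 1001 CPM at day 2 and 320.3, 388, 650.2 and 551 CPM at day 10, lower in each number with ranges that overlap (-0.68 ± 0.19, adjusted p = 0.448). Its target Thbd, thrombomodulin, was at 1066 to 2008 CPM and 879 to 1099 CPM. Edn1, the vasoconstrictor endothelin, was at 242, 77.4, 314 and 376 CPM and then 97.1, 52.6, 146 and 175 CPM. Ptgs1, a prostaglandin synthase, lay wholly below at day 10 (30.3 to 108 against 109 to 152 CPM). Of 18 flow-responsive genes none passed, 12 were negative, and the median was -0.26.

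Serpine2 in the whole gate stood at 446, 453, 701 and 621 CPM at day 2 and 171, 167, 211 and 277 CPM at day 10, wholly below (-1.41 ± 0.29, edgeR adjusted p = 0.233), after healthy sums of 43.6 to 236 CPM. Its day 2 change against healthy mice passed (2.24, adjusted p = 0.0202). Col18a1 was at 269 to 287 CPM and then 107 to 169 CPM, wholly below (-1.14 ± 0.19, adjusted p = 0.104). Sparc, a matrix glycoprotein that binds collagen, had the other sign, at 2728, 3341, 3738 and 3519.6 CPM at day 2 and 4708, 4029, 4951 and 4054 CPM at day 10, wholly above (0.41 ± 0.13, adjusted p = 0.545). The chains of basement membrane collagen IV hardly differed between both times: Col4a1 was at 846 to 1720.3 CPM and 984 to 1158 CPM, above the 364 to 603 CPM of healthy sums. Over 19 tested genes of mesenchymal transition the median was 0.26, with 11 positive and none passing, and Zeb1 had the smallest p (0.48 ± 0.16, adjusted p = 0.556).

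Immediate early and stress genes, many of which respond to handling of tissue, were mostly lower at day 10: 23 of 27 were negative, 2 lay wholly below and the median was -0.36. Jun was at 2047 to 2508 CPM at day 2 and 829 to 2034 CPM at day 10. Cell cycle genes were rare at both times. Mki67, a marker of dividing cells, was at 0.495, 0, 7.96 and 0.151 CPM at day 2 and 18.5, 1.59, 41.4 and 15.4 CPM at day 10 (edgeR adjusted p = 0.234), and 1.56 to 4.72% of day 10 wells had 10 reads of it before thinning. The day 10 value of number 3 came from 1 well. Over 26 cell cycle genes 15 were positive, 1 lay wholly above, none passed and the median was 0.60.

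Genes of smallest p outside these lists included Cdc42ep3, a binding partner of the GTPase CDC42, at 89.3 to 114 CPM at day 2 and 229.7 to 346 CPM at day 10 (1.40 ± 0.20, edgeR adjusted p = 0.103). Against healthy sums of 46.5 to 69.1 CPM its day 10 change passed (2.24, adjusted p = 0.00139). Alpl, tissue alkaline phosphatase, was at 176 to 283 CPM at day 2 and 406 to 554 CPM at day 10 (1.13 ± 0.18, adjusted p = 0.103), and healthy sums held 291 to 617 CPM. Clec14a was at 337 to 463 CPM and then 176 to 245 CPM (-0.89 ± 0.16, adjusted p = 0.126), and its day 10 change against healthy sums of 688 to 877 CPM passed (-1.83, adjusted p = 0.00139). Sgk1, a kinase that corticosteroids induce, was at 2429.8 to 4211 CPM and then 1699.9 to 2324 CPM (-0.76 ± 0.16, adjusted p = 0.233). All 4 genes had non-overlapping values.

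The day 10 minus day 2 change was also set against that of the mesenchyme gate, 742 wells sorted from the same plates. No gene of 16116 passed the test of the difference between gates (0%, edgeR, 1301 at an unadjusted p under 0.05, smallest adjusted p 0.0705), and the test without the block called 1. Of the genes named here Lpl had the smallest p: its change was -2.06 in the endothelia gate and 0.13 ± 0.22 in the mesenchyme gate, a difference of -2.26 ± 0.39 (adjusted p = 0.0718). Serpine2 was -1.41 in the endothelia gate and rose by 0.72 ± 0.10 in the mesenchyme gate (adjusted p = 0.0480; 7 of 14582 genes, 0.048%, passed in that gate), a difference of -2.14 ± 0.43 (adjusted p = 0.142). Slco2a1 differed by -1.66 ± 0.32 (adjusted p = 0.138). For Ifit1 the changes were 1.94 and 2.21 ± 1.36, and their difference was -0.22 ± 1.23. None of these changes is therefore shown to be particular to endothelium.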

How the data were processed

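Per the labels, each plate mixed 3 mice. The authors deposited raw read counts per gene and well, spike-in counts and a layout naming each well's gate, condition and number. STAR and mm10 stand in the submitters' processing notes without versions. The counting tool, annotation and strandedness are not given in the sources used here. Entries of 1 symbol were added, leaving 23998 symbols. Each condition fills the same plate columns on every plate, so condition and plate column cannot be told apart.

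Wells with at least 1000 genes and 20000 reads were summed per number and condition. edgeR 4.0.16 (R 4.3.3) tested genes kept by filterByExpr, with TMM scaling, quasi-likelihood F tests over all 12 sums, number as a block and Benjamini-Hochberg adjustment (threshold 0.05). Same-numbered sums deviated together only weakly (r = 0.0755, 0.168, 0.0748 and 0.0972), so the block rests on shared plates. In simulated data of 13691 genes, 75% of 100 genes with a log2 change of 2 and 16% of 100 with 1 were recovered. Changed genes were drawn only from those above a minimum level. Counts were drawn for each sum without separate effects of number or of single wells. The simulation gave 94 calls and the real data 2, so these shares are not the power of the real test over all genes.

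The comparison, gene lists and markers were chosen with earlier results of these data known. Named genes were up to 15 in each direction that passed or, failing that, had the smallest p (mean log2 CPM of at least 4, with all numbers of 1 sign), the leading members by p of 24 lists, and fixed markers; Tmem27 and other listed members shown beside them were named after their values were seen. Not every named gene is printed. For Ehd3 wells all 19 called genes are given. Thinned shares leave out 6 day 10 and 11 day 2 wells under 100000 reads. Doublets were not called. One marker gene is not reported here. Alternatives were DESeq2 1.42.0, other scalings, filters, wells and units.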

Additional observations from a re-analysis of the deposited data

Results flagged for a closer look

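In 19 of the 162 groups of 4 sums checked, 1 sum lay far from the other 3 by Dixon's test, which flags about 1 in 20 groups by chance. All values are CPM with TMM scaling. At day 2, number 2 stood apart for Stat3 (572), C3 (57.0), Jun (2047), Cd36 (511) and Socs3 (3186), and number 3 for Tie1 (1180.3), Smad1 (40.1), Mki67 (7.96) and Cxcr4 (5.78). Ptprc stood apart in number 1 (2.77) and Slc12a3 in number 4 (0.108). At day 10, number 4 stood apart for Spp1 (913), Slc12a3 (21.9), Ptprc (3.30), Havcr1 (0.611) and Tmem27 (0.115), the last 2 beside 3 sums at 0. Number 1 stood apart for B2m (5725), number 2 for Cxcr4 (8.29) and number 3 for Serpina3n (0.109).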

How the results depend on the processing

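The count of 2 called genes was 0 with no replicate block, 1 with day 2 and day 10 sums alone, 1070 with DESeq2, 19 without a filter on low counts, 49 with sums per plate and plate as block (which counts numbers 1 and 4, on 2 plates each, as 2 replicates), 1 with wells of at least 2000 genes and 100000 reads, 7 with wells thinned to 50000 reads, 1 in endothelial-marker wells, and 1 without plate 2 or plate 6. Leaving out a replicate gave 0 to 6. Alternatives by plate, and a marker rule with 4 podocyte genes, were chosen after seeing the data. No cause of these differences was tested. In the Ehd3 wells 19 calls became 12 with no replicate block and 0 to 10 without a replicate; the difference between gates called 1 gene with no replicate block. The difference in gene reads per spike-in read (-19.9) reversed to 2.80 as a mean over wells and ranged from -30.9 to 13.2 without a replicate. Of 1320 log2 changes of 74 genes under alternatives, 1202 kept direction and side of the threshold, 91 gained the threshold (23 of them in the sums per plate), 13 lost it (Lpl and Tmem27) and 14 reversed, all of genes that did not pass. These were Cd36 (0.19 in endothelial-marker wells, 0.11 without plate 5), Cldn5 (-0.19 in endothelial-marker wells), Col4a1 (0.029 with stricter wells, 0.16 in endothelial-marker wells, 0.019 without plate 6), Icam1 (0.020 without plate 6) and Ptprc (0.059 with no replicate block). Without a replicate, changes ranged from -0.30 to 0.091 for Cd36, -0.17 to 0.20 for Col4a1, -0.22 to 0.076 for Kdr, -3.72 to 0.64 for Ptprc and -0.41 to 0.15 for Socs3. Counting error limits genes of a few CPM, where 1 well can set a sum.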
